A study of Rattus norvegicus with 15 samples.

Results

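The miR-15/16 seed family is a group of microRNAs that begin with almost the same bases. Of the 350 rat miRNAs on the array, 6 were taken by their exact array names, with no star (minor arm) forms: rno-miR-497, rno-miR-195, rno-miR-15b, rno-miR-16, rno-miR-322 and rno-miR-503, written below without the prefix. They were read by 12 of the 938 probes. All 6 were bright enough to be tested in rat heart, among 165 miRNAs tested. The signal of each came from whole heart RNA of male Sprague-Dawley rats, labelled with the dye Cy3 on one-colour Agilent arrays. The GF group (5 arrays) were diabetic rats in which plasma glucose was made to swing by a 24 h fast and 0.5 IU/kg insulin into the peritoneum. The DM group (5 arrays) were diabetic rats with sustained high glucose. Diabetes in both was caused by streptozotocin, 60 mg/kg into a tail vein, a toxin of the pancreatic beta cells that make insulin. The Veh group (5 arrays) received vehicle. The labels give no age and do not say whether the Veh or DM rats were fasted.

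In 5 cases a pair of arrays from 1 group differed by less than the scanner's stated error, and each pair was averaged and counted as 1 sample. The reduced chi-square of those pairs was 0.252 to 0.565, and 1.01 to 7.88 for the other 100 pairs of arrays. That left 10 distinct samples: 3 GF, 3 DM and 4 Veh. An array is named by its group and replicate number, so "GF 2 and 4" is the mean of those arrays. Veh 5 was nearer to DM 1 (chi-square 1.17) than to any other Veh array (3.51 to 4.98). DM 4 (2.09), DM 2 (2.10), GF 5 (2.55) and GF 1 (3.00) were also nearer to it than any Veh array. The remaining DM and GF arrays were at 4.96 to 6.70. The main differences are therefore also given without Veh 5. The labels do not say that arrays came from separate animals, so the p-values measure only the spread between these samples, part of which may be technical. Each array detected 166 to 190 miRNAs and none had a saturated spot. All 5 cardiomyocyte markers searched (miR-1, miR-133a, miR-133b, miR-208 and miR-499) were above background on all 15 arrays. The liver marker miR-122 and the neural marker miR-124 were above background on 0 of 15.

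A miRNA guides the silencing complex to messenger RNAs chiefly through its seed, bases 2 to 8, so miRNAs with one seed share many targets. miR-15/16 family members are known to repress cell cycle genes such as cyclin D1 and Chek1 and the survival gene Bcl2. In mouse heart, miR-195 rises after birth as cardiomyocytes leave the cell cycle, and forced miR-195 expression there causes heart failure. miR-322 and miR-503, the first the rodent counterpart of human miR-424, are known from muscle differentiation and from the endothelium. The family is made from 3 separate places in the genome, each giving a pair of members from neighbouring hairpins.

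The mature sequences show why the 6 are one group and where they differ. They were taken from RefSeq (GRCr8), 5′ to 3′, with the array name read as the 5p arm, and capitals mark the seed.
miR-497: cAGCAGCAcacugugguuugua
miR-195: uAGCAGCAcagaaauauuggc
miR-15b: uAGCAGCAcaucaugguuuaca
miR-16: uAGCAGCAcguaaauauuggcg
miR-322: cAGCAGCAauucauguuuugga
miR-503: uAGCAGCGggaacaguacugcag
The first 5 share the seed AGCAGCA, and miR-503 ends its seed with another base, as AGCAGCG. Of 693 mature rat miRNAs in the RefSeq table, 5 had the shared seed, and 6 had its first 6 bases at positions 2 to 7. Outside the seed the members diverged. Aligned from the first base without gaps, miR-16 and miR-195 were identical at 19 of 21 bases, miR-497 and miR-195 at 12 of 21, and miR-322 and miR-503 at 11 of 22. Cross-hybridization between miR-16 and miR-195 probes was not tested.

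miR-497 lies at chr10:55450172-55450193 and miR-195 at chr10:55450509-55450529, both on the plus strand, 315 bases apart, with no annotated host gene. miR-15b (chr2:155555197-155555218) and miR-16 (chr2:155555343-155555364) lie on the plus strand, 124 bases apart, within the protein-coding gene Smc4, a condensin subunit. miR-322 (chrX:137726198-137726219) and miR-503 (chrX:137725899-137725921) lie on the minus strand, 276 bases apart, within the long non-coding RNA LOC102550366. These positions are those of RefSeq on GRCr8.

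GF was first set against Veh, the comparison with the largest changes in the family. miR-497 fell to 75.1% of its Veh level in GF hearts. It was the only 1 of 6 members past the threshold (adjusted p under 0.05, limma), where 4.85% of the 165 tested miRNAs were called lower and 7.88% in either direction. miR-195 and miR-15b were below every Veh sample in all 3 GF samples without passing the test. miR-16, miR-322 and miR-503 overlapped between the groups by the brightest probe, though the dimmer miR-16 probe did not. By the brightest probe of each, non-overlap towards lower values was thus seen in 3 of 6 members, beside 19.4% of all tested miRNAs. In bulk heart RNA, fewer cells of a type and less RNA per cell cannot be told apart.

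The signals of miR-497 (log2, scaled to the 75th percentile of each array) were 11.03 in GF 1 and 5, 10.87 in GF 2 and 4 and 11.08 in GF 6. In DM they were 11.36 in DM 1, 11.31 in DM 2 and 4 and 11.16 in DM 3 and 5. In Veh they were 11.40 in Veh 1 and 3, 11.38 in Veh 2, 11.35 in Veh 4 and 11.48 in Veh 5. Every GF sample was below every DM and every Veh sample, while DM 1 stood within the Veh range. The group means were 10.99 ± 0.11 in GF (SD, n = 3), 11.28 ± 0.10 in DM (n = 3) and 11.41 ± 0.055 in Veh (n = 4). GF minus Veh was -0.41 (log2, SE 0.081, limma, adjusted p = 0.0194), with a 95% interval of -0.59 to -0.23.

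The call of miR-497 depended on the sample set and the scaling, its direction did not. Over 24 other settings of the limma fit, GF minus Veh ran from -0.47 to -0.092, below 0 in each, and adjusted p ran from 0.000376 to 0.774, under 0.05 in 14. These settings are not independent. Leaving out a DM sample or the filter cannot change a GF minus Veh difference, only its p. A floor of 1 left miR-497 at -0.41. The fits over 15 arrays (limma, adjusted p = 0.000376 to 0.00175) count both arrays of each near-identical pair. Leaving out Veh 1 and 3, Veh 2, Veh 4 or GF 2 and 4 each ended the call, with the difference at -0.41, -0.42, -0.43 and -0.35 and the adjusted p over all samples left out in turn at 0.0116 to 0.0977 (limma). Without Veh 5 it was -0.39 and still past the threshold (limma, adjusted p = 0.0189). Without Veh 5 the other members gave -0.20 (miR-195), -0.20 (miR-15b), -0.081 (miR-16), 0.17 (miR-322) and -0.30 (miR-503), and 0 of these passed. Both slides gave the same sign, -0.47 within slide 1 and -0.40 within slide 2. Each near-identical pair, counted above as 1 sample, had 1 array on each slide, so the 2 slides are not independent. Without any scaling between arrays the median of all tested miRNAs was 0.24 above Veh in GF, and miR-497 was -0.33 relative to that median. Relative to the median of all tested miRNAs, miR-497 was -0.41 to -0.29 in every setting that gave one.

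**Figure D1:**
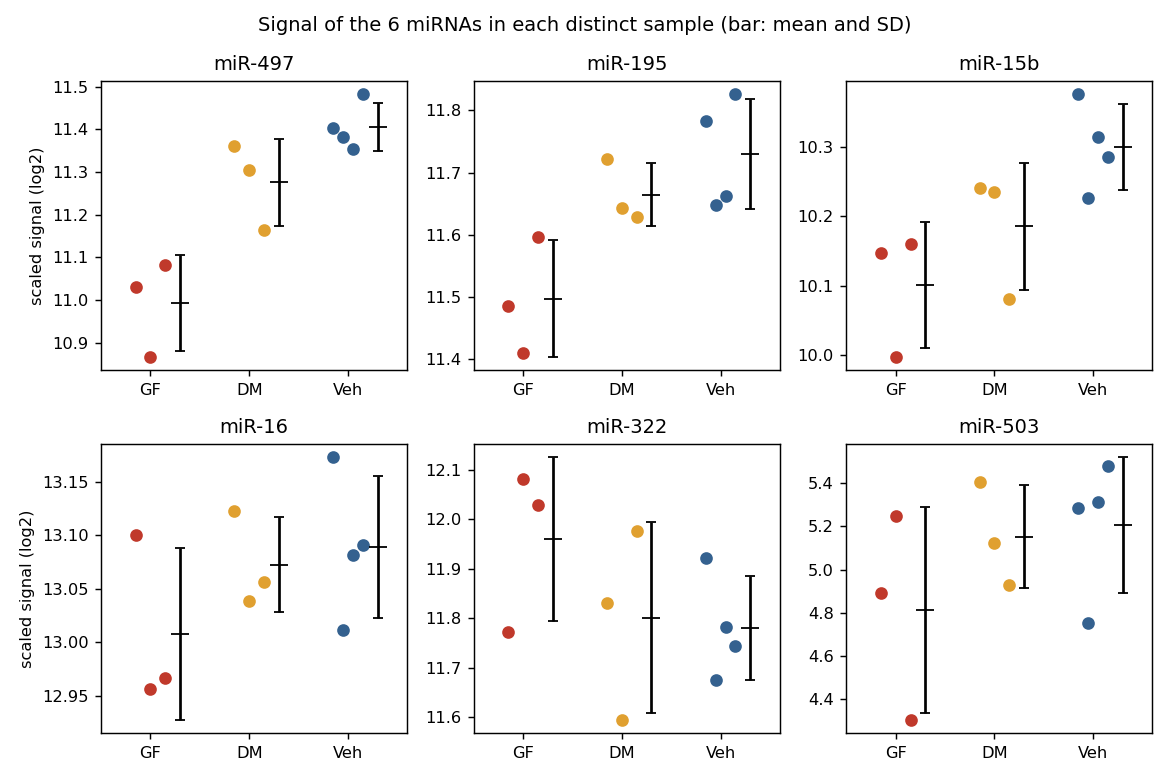
Scaled signal (log2) of the 6 miRNAs in each distinct sample of GF, DM and Veh hearts; points are samples, the bar beside them is the mean and SD (n = 3, 3 and 4), and the y axis differs between panels. miR-497 in GF runs from 10.87 to 11.08, below all DM and Veh samples, while miR-322 and miR-503 overlap between groups.

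miR-195 is made beside miR-497. Its signals (log2) were 11.49 in GF 1 and 5, 11.41 in GF 2 and 4 and 11.60 in GF 6. They were 11.72, 11.64 and 11.63 in DM 1, DM 2 and 4 and DM 3 and 5, and 11.78, 11.65, 11.66 and 11.83 in Veh 1 and 3, Veh 2, Veh 4 and Veh 5. All GF samples were lowest, and the DM range overlapped the Veh range. The GF minus Veh difference was -0.23 (SE 0.077, limma, adjusted p = 0.087), 85.1% of the Veh level, with adjusted p of 0.00438 to 0.821 over 24 other settings, 5 of them under 0.05. Of those 5, the fits over 15 arrays (limma, adjusted p = 0.00438 to 0.00611) count near-identical arrays as independent. The rest, over the 10 samples, were the mean of all probes (limma, adjusted p = 0.0257) and the total gene signal (0.036).

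miR-15b had log2 signals of 10.15, 9.997 and 10.16 in GF 1 and 5, GF 2 and 4 and GF 6. It had 10.24, 10.24 and 10.08 in DM 1, DM 2 and 4 and DM 3 and 5, and 10.38, 10.23, 10.31 and 10.28 in Veh 1 and 3, Veh 2, Veh 4 and Veh 5. The GF samples were below all Veh samples, but DM 3 and 5 stood among the GF samples. Between GF and Veh the difference was -0.20 (SE 0.077, limma, adjusted p = 0.121). Its partner miR-16 differed least: 13.01 ± 0.080 in GF (SD, n = 3), 13.07 ± 0.044 in DM (n = 3) and 13.09 ± 0.066 in Veh (n = 4), with GF minus Veh at -0.081 (95% interval -0.24 to 0.077, limma, adjusted p = 0.488). The lower values of miR-195 and miR-15b rest on scaling: with none, GF minus Veh was 0.089 for miR-195, 0.12 for miR-15b and 0.24 for miR-16, at or below the 0.24 of all tested miRNAs.

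miR-322 carries the same seed but did not share that order. Its log2 signals were 11.77, 12.08 and 12.03 in GF 1 and 5, GF 2 and 4 and GF 6. They were 11.83, 11.59 and 11.98 in DM 1, DM 2 and 4 and DM 3 and 5, and 11.92, 11.67, 11.78 and 11.74 in Veh 1 and 3, Veh 2, Veh 4 and Veh 5. The groups overlapped in every pairing; GF 2 and 4 and GF 6 were above all DM and Veh samples and GF 1 and 5 was among them. GF minus Veh was 0.18 (SE 0.11, 95% interval -0.076 to 0.44, limma, adjusted p = 0.312). It was above 0 in all 24 other settings, from 0.12 to 0.50, and past the threshold in 0 of them. With a sample left out it ran from 0.12 to 0.27.

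miR-503, next to miR-322, was close to background. Its brighter probe was above background on 4 of 5 GF arrays, 5 of 5 DM arrays and 5 of 5 Veh arrays, and its other probe on 0 of 15. The log2 signals were 4.89 in GF 1 and 5, 5.25 in GF 2 and 4 and, at the floor of 4.31, GF 6. They were 5.40, 5.12 and 4.93 in DM 1, DM 2 and 4 and DM 3 and 5, and 5.29, 4.75, 5.31 and 5.48 in Veh 1 and 3, Veh 2, Veh 4 and Veh 5. The groups overlapped and the spread was the widest of the 6. The difference from Veh was -0.39 in GF (SE 0.24, 95% interval -0.92 to 0.14, limma, adjusted p = 0.278), and leaving out GF 6 moved it to -0.14, leaving out GF 2 and 4 to -0.61. Its sign differed between slides, 0.11 within slide 1 and -0.58 within slide 2.

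**Figure D2:**
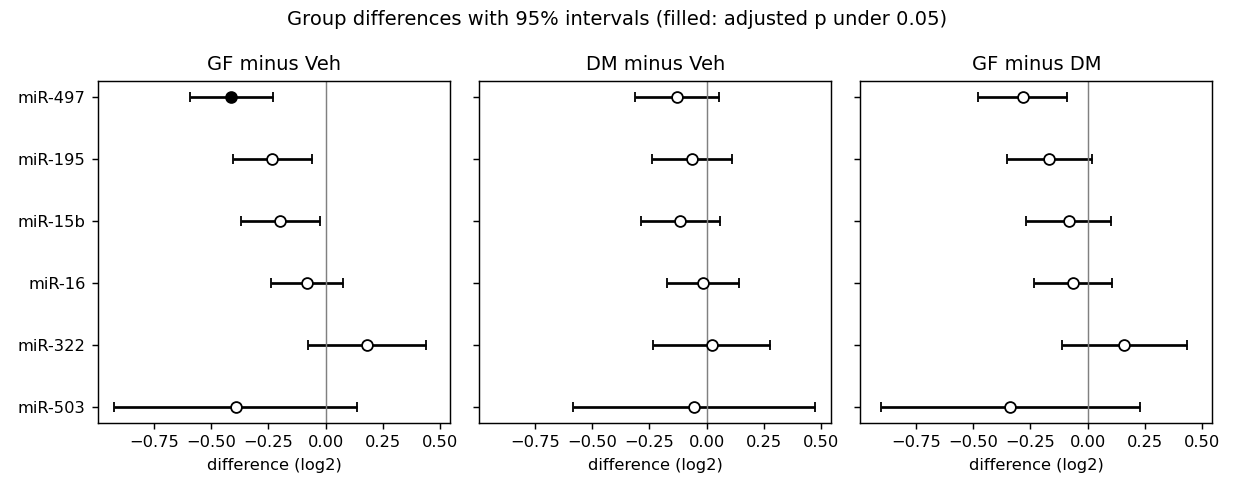
Group differences (log2, x axis) of the 6 miRNAs with 95% intervals from limma over 10 distinct samples, for GF minus Veh, DM minus Veh and GF minus DM; a filled point has an adjusted p under 0.05. miR-497 in GF minus Veh, at -0.41, is the only filled point.

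The median difference of the 6 members in GF minus Veh was -0.22, beside -0.055 for all tested miRNAs, and 5 of 6 members were below 0, beside 58.8% of all tested. With all 15 arrays taken as independent, 3 members were called lower (miR-497, miR-195 and miR-15b) and 23.6% of all tested miRNAs were. Each array of the 5 near-identical pairs counts by itself in that fit. Same-numbered GF and Veh arrays deviated together, with correlations of 0.15 to 0.47 in 4 of 4 pairs, each on 1 slide. Arrays of other numbers reached 0.28 between GF and Veh and, on 1 slide, 0.60 between GF and DM. The 4 pairs hold both GF 1 and GF 5, and both GF 2 and GF 4, each counted above as 1 sample, so they are not independent. The pairing was taken from these same data and was not tested. With the replicate number as a block over the 15 arrays, the same 3 members were called lower: miR-497 at -0.47, miR-195 at -0.29 and miR-15b at -0.25 (limma, adjusted p = 0.00175, 0.00611 and 0.0159). That fit called 19.4% of all tested miRNAs lower. Replicate number 6 held GF 6 alone, so in the blocked fit GF 6 added nothing to GF minus Veh. The GF arrays left were GF 1 and GF 5, and GF 2 and GF 4, each pair counted above as 1 sample. The blocked fit counts each of these arrays by itself, so its adjusted p-values take near-identical arrays as independent.

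Markers of heart muscle and of other cells also differed in the same comparison. The summed signal of the 4 endothelial markers (miR-126, miR-126*, miR-221 and miR-222) was 15784 to 17135 in GF, 17651 to 20976 in DM and 19469 to 23978 in Veh samples, the same order as miR-497. Most of that sum is miR-126, with log2 means of 13.96 in GF, 14.14 in DM and 14.32 in Veh. Of the list 3 were tested and 0 passed (2 with 15 arrays), and miR-222 was above background on 0 of 15 arrays. miR-126 and miR-126* gave -0.37 and -0.28 without overlap. miR-221 gave -0.38 with overlap and did not follow that order, with log2 means of 6.97 in GF, 7.37 in DM and 7.35 in Veh. The red cell pair (miR-144 and miR-451) summed to 4603 to 5936 in GF, 3447 to 6177 in DM and 6148 to 7349 in Veh. In GF minus Veh the pair gave -0.34 and -0.36, both without overlap, and in DM minus Veh -0.54 and -0.61; both passed in both comparisons with 15 arrays alone. Of 4 leukocyte markers tested, miR-142-5p was called lower in GF than in Veh at -0.64 (limma, adjusted p = 0.0367). The other 3 differed in sign and did not pass: miR-142-3p gave -0.48, without overlap (called lower with 15 arrays, limma, adjusted p = 0.0121), miR-223 gave 0.51 (called higher with 15 arrays, adjusted p = 0.00128) and miR-150 gave -0.0097. miR-150 was separate in the other comparisons, -0.27 in DM minus Veh and 0.26 in GF minus DM. The leukocyte list summed to 3731 to 4399 in GF, 3846 to 4846 in DM and 4395 to 4646 in Veh. Of 4 epithelial markers tested, miR-200c (2.58) and miR-141 (2.41) were called higher in GF than in Veh (limma, adjusted p = 0.0194 each). miR-200a (0.070) and miR-200b (0.016) were not called, and were above background on 7 and 6 of 15 arrays. The epithelial list summed to 382 to 499 in GF, 163 to 464 in DM and 108 to 187 in Veh, with miR-429 above background on 0 of 15 arrays. Of 5 cardiomyocyte markers, miR-208 was called lower, at -1.34 (limma, adjusted p = 0.0194), while miR-133a, miR-133b and miR-499 gave -0.34, -0.32 and -0.19 and passed with 15 arrays alone. The 5 summed to 114861 to 132783 in GF, 126683 to 135860 in DM and 124291 to 170764 in Veh. The smooth muscle pair (miR-143 and miR-145) overlapped between groups, with 0 of 2 called. The part of these in the result for miR-497 was not tested.

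DM against Veh shows the members under sustained high glucose. No member passed the threshold (0 of 6 by limma and 0 with all 15 arrays). At an unadjusted p under 0.05 the limma fit had 0 members, beside 8.48% of all tested miRNAs, and 2 members with all 15 arrays (miR-497 and miR-15b), beside 21.8%. The share of all tested miRNAs called was 0.0%, and 1.82% with all 15 arrays. The difference was -0.13 for miR-497 (95% interval -0.31 to 0.052, limma, adjusted p = 0.555) and -0.065 for miR-195 (-0.24 to 0.11). It was -0.11 for miR-15b (-0.29 to 0.057), -0.017 for miR-16 (-0.18 to 0.14), 0.021 for miR-322 (-0.24 to 0.28) and -0.056 for miR-503 (-0.58 to 0.47). Without Veh 5 the values were -0.10 for miR-497, -0.033 for miR-195, -0.12 for miR-15b, -0.016 for miR-16, 0.0084 for miR-322 and 0.034 for miR-503, the last with its sign turned. No member's DM samples lay wholly outside its Veh samples, where 4.85% of all tested miRNAs did so towards lower values and 1.21% towards higher. GF minus Veh and DM minus Veh use the same Veh samples, so the values are set side by side only.

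GF against DM sets diabetic hearts with swings of glucose against those without. The fast, the insulin and the swings came together in GF and cannot be told apart. By limma 0 of 6 members passed, with 0.0% of all tested miRNAs called; 1 member, miR-497, passed at an unadjusted p under 0.05, beside 10.9% of all tested miRNAs. miR-497 was -0.28 (82.2% of the DM level, 95% interval -0.48 to -0.089, limma, adjusted p = 0.272) and all GF samples were below all DM samples. miR-195 was -0.17 (-0.35 to 0.018, limma, adjusted p = 0.418), also without overlap. These 2 of 6 members stand beside 12.7% of all tested miRNAs with no overlap towards lower values. With all 15 arrays miR-497 was called (-0.28, limma, adjusted p = 0.0135), in a fit that called 3.64% of all tested miRNAs. Its adjusted p over the 24 other settings was 0.0135 to 0.77, and without scaling its sign turned to 0.16, where the median of all tested miRNAs was 0.35. The other members gave -0.084 for miR-15b, -0.065 for miR-16, 0.16 for miR-322 and -0.34 for miR-503, with intervals that include 0.

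Different probes of a member gave the same sign in GF minus Veh where both were tested, though not always the same call. Of the 12 probes, 11 were tested, and 9 of 11 were below 0 in GF minus Veh, the others being both miR-322 probes. Both miR-497 probes were called lower, the brighter at -0.41 and the dimmer at -0.47 (limma, adjusted p = 0.0194 each). The dimmer miR-195 probe was called too, at -0.30 (limma, adjusted p = 0.0261), while the brighter was at -0.23 (adjusted p = 0.0732). These 3 of 11 member probes stand beside 5.67% of 300 tested probes called lower. With all 15 arrays 7 member probes were called lower in GF minus Veh (23.7% of all probes) and 3 in GF minus DM (4.0%). The miR-15b probes were at -0.24 and -0.20, the miR-16 probes at -0.16 and -0.081, and the miR-322 probes at 0.18 and 0.18, dimmer probe first. On the dimmer miR-16 probe all GF samples were below all Veh samples (limma, adjusted p = 0.121, and 0.026 with 15 arrays). On the brighter miR-16 probe they overlapped (adjusted p = 0.466, and 0.207 with 15 arrays).

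Ratios of neighbours on the same array do not depend on a scaling factor between arrays, except where a signal is at the floor, as for miR-503 in GF 6. The log2 ratio of miR-497 to miR-195 was -0.45, -0.54 and -0.51 in GF 1 and 5, GF 2 and 4 and GF 6. It was -0.36, -0.34 and -0.47 in DM 1, DM 2 and 4 and DM 3 and 5, and -0.38, -0.26, -0.31 and -0.34 in Veh 1 and 3, Veh 2, Veh 4 and Veh 5. All GF samples but GF 1 and 5 were below all DM samples, and all were below all Veh samples. This put GF minus Veh at -0.18, with an exact permutation p of 0.0571 (two-sided), the smallest that 3 against 4 samples can give, and 0.257 after Benjamini-Hochberg adjustment over 9 ratio tests. Of the settings that can change a within-array ratio, quantile normalization gave -0.23, and normexp, the mean of all probes and the total gene signal each gave -0.17. Without Veh 5 it was -0.19.

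The ratio of miR-15b to miR-16 averaged -2.91 ± 0.087 in GF (SD, n = 3), -2.89 ± 0.086 in DM (n = 3) and -2.79 ± 0.017 in Veh (n = 4). GF minus Veh was -0.12 without overlap (exact permutation p = 0.0571, adjusted 0.257), though GF 6 (-2.81) was almost level with Veh 5 (-2.81). It was -0.024 with quantile normalization, and -0.12, -0.10 and -0.11 with the same other settings. Without Veh 5 the DM samples, too, were all below the Veh samples, at -0.10 (exact permutation p = 0.1, the smallest that 3 against 3 can give). The ratio of miR-503 to miR-322 was -7.15 ± 0.50 in GF, -6.65 ± 0.34 in DM and -6.57 ± 0.28 in Veh, and GF 6, at the miR-503 floor, had the lowest value. Its GF minus Veh difference was -0.57 (exact permutation p = 0.171, adjusted 0.36); without GF 6 it was -0.28, without Veh 5 -0.47 and without GF 2 and 4 -0.73. None of the 9 tests was past the threshold after adjustment. With 3 against 3 samples, as in GF minus DM, the smallest possible p is 0.1.

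miR-497 and miR-322 share a seed and had opposite signs in GF minus Veh; this pair was chosen after its values were seen and gets no test. The log2 ratio of miR-497 to miR-322 averaged -0.97 ± 0.24 in GF (SD, n = 3), -0.52 ± 0.27 in DM (n = 3) and -0.37 ± 0.12 in Veh (n = 4). The GF samples ran from -1.22 to -0.74 and the Veh samples from -0.52 to -0.26, without overlap. DM ran from -0.81 to -0.29 and overlapped both. GF minus Veh of this ratio was -0.59, and -0.66 with quantile normalization, -0.58 under normexp, -0.62 when probes were averaged and -0.61 by total gene signal.

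**Figure D3:**
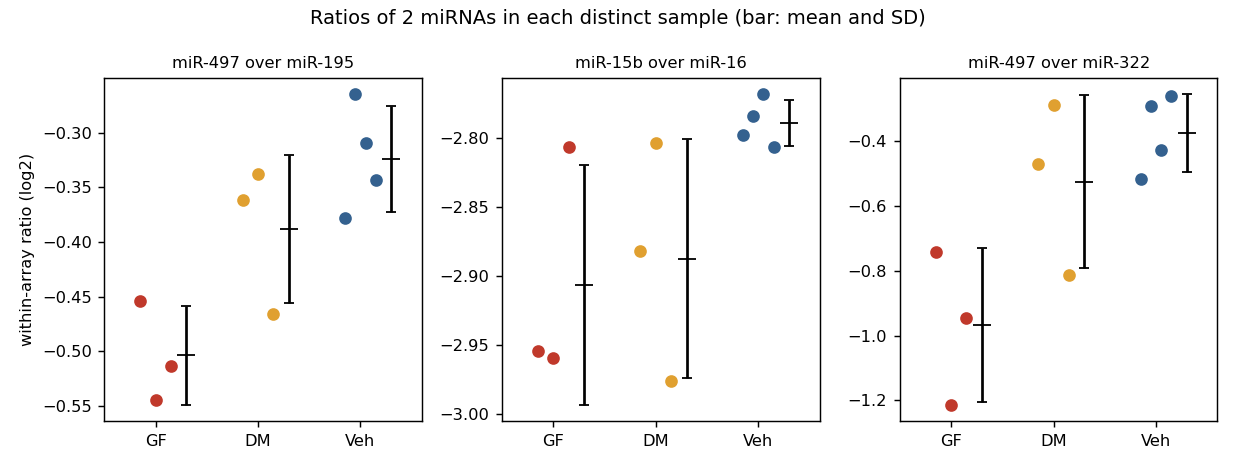
Within-array log2 ratios in each distinct sample of GF, DM and Veh hearts for miR-497 over miR-195, miR-15b over miR-16 and miR-497 over miR-322; the bar is the mean and SD (n = 3, 3 and 4), and the y axis differs between panels. In each panel every GF sample is below every Veh sample, narrowly for miR-15b over miR-16.

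**Figure D4:**
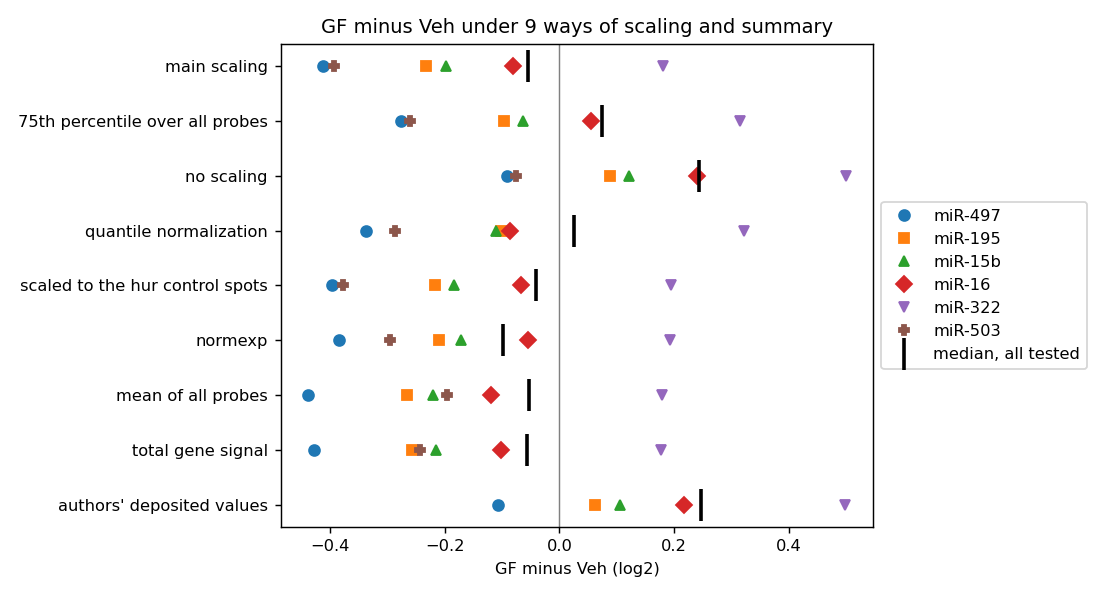
GF minus Veh (log2, x axis) of the 6 miRNAs, coloured by miRNA, under 9 ways of scaling and summarizing the same arrays; the black tick is the median of all tested miRNAs. Where only the scaling factor between arrays changes, the set shifts nearly together, and in the other ways, such as quantile normalization, the members move unequally. miR-497 stays left of the black tick and miR-322 right of it in all 9, and miR-503 is not among the authors' deposited values.

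The likeness of 2 profiles was taken as the root mean square difference of their log2 signals over the 10 distinct samples, each centred on its own mean, so a small value means a like pattern. The samples share arrays and scaling, and no test goes with it. miR-497 was most like miR-195 of all 164 other tested miRNAs, at 0.087 against a median of 0.23; from the side of miR-195, miR-497 ranked 7th. The most alike members were miR-195 and miR-15b, from different chromosomes, at 0.067 and each the nearest to the other. The neighbours miR-15b and miR-16 were at 0.077, ranked 4th from miR-15b and 12th from miR-16. The nearest non-members of miR-497 were miR-99a* (0.093), miR-146a (0.094) and miR-199a-3p (0.096), with GF minus Veh of -0.35, -0.47 and -0.39. Those of miR-195 were miR-151, miR-23a and miR-99a, of miR-15b miR-99a, miR-151 and miR-30e, and of miR-16 miR-28, miR-148b-3p and let-7a. With quantile normalization miR-195 was 13th from miR-497 and miR-497 was 51st from miR-195.

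For miR-322, the 4 most similar miRNAs of 164 were 4 products of the same stretch of chromosome X. They were miR-542-5p (0.10), miR-542-3p (0.11), miR-450a (0.12) and miR-322* (0.12), against a median of 0.24, and miR-503 ranked 142nd. In RefSeq (GRCr8) miR-542-5p lies 3953 bases from miR-322 and miR-450a 5191 bases, on the same strand. These neighbours do not carry the family seed, as their sequences show with bases 2 to 8 in capitals.
miR-542-5p (chrX:137722223-137722244): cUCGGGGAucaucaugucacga
miR-542-3p (chrX:137722185-137722206): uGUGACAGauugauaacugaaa
miR-450a (chrX:137720985-137721006): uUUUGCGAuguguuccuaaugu
The 4 held ranks 1 to 4 with all 15 arrays and with the total gene signal, 1 to 12 with the mean of all probes and 1 to 11 with quantile normalization, but 20 to 50 with normexp background correction. RefSeq annotates no host gene for miR-542-5p, miR-542-3p or miR-450a, and whether they share a transcript with miR-322 was not tested. Of the 12 other products listed for the 3 places in the genome, 5 were on the array and 4 were tested. In the 3 comparisons 0 of 4 passed (limma, 10 samples or 15 arrays). miR-351, on the array, was above background on 0 of 15. In GF minus Veh the differences were 0.17 for miR-542-5p, 0.12 for miR-450a, 0.0016 for miR-542-3p and -0.0070 for miR-322*.

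**Figure D5:**
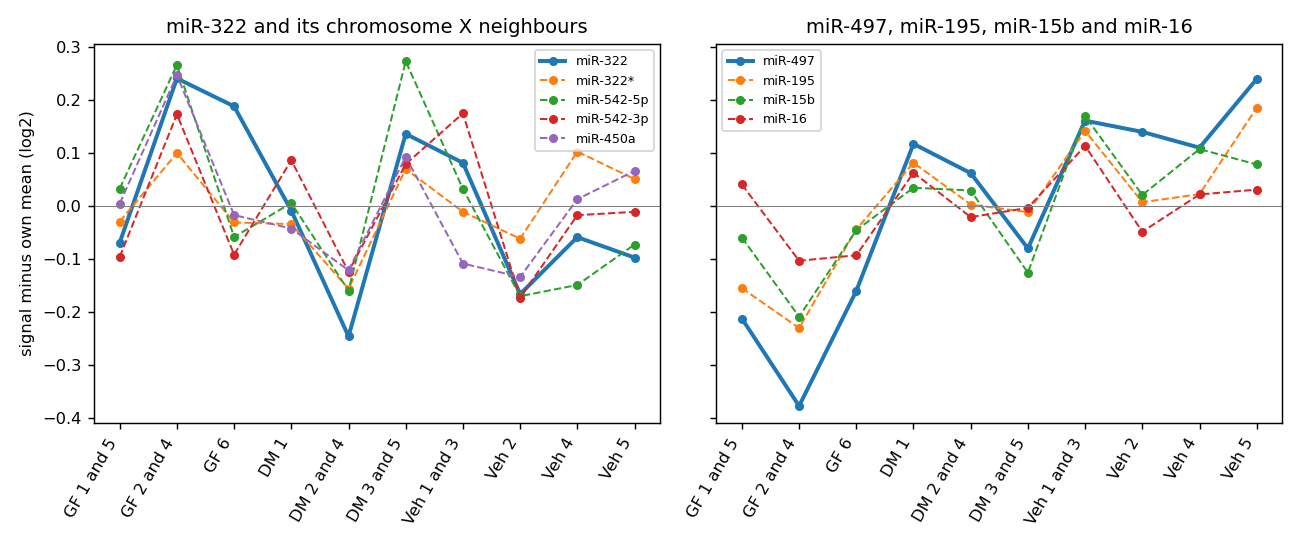
Log2 signal minus the miRNA's own mean in each distinct sample, GF to the left, then DM and Veh; the left panel has miR-322 (solid) with 4 products of the same chromosome X stretch (dashed), the right panel miR-497 (solid) with miR-195, miR-15b and miR-16 (dashed). In the left panel GF 2 and 4 is high and DM 2 and 4 low for all 5 lines; in the right panel GF 2 and 4 is the lowest sample of all 4.

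miR-103 and miR-107, which carry the first 6 bases of the shared seed shifted by 1 base and are known for regulating insulin sensitivity in mouse liver and fat, were both tested. Neither passed in any comparison. The GF minus Veh values were -0.057 for miR-103 and 0.12 for miR-107 (limma, adjusted p = 0.592 and 0.481). The authors' deposited table of filtered miRNAs held 5 of the 6 members, without miR-503. The authors' deposited table of differences between the 3 groups listed 0 of those 5, while it listed 23.5% of the filtered miRNAs (35). The header calls the deposited values normalized. They equalled the log2 total gene signal of the array files minus the mean of the Veh arrays, with no scaling, to within 2.05e-06.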

How the data were processed

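Scanning of the 15 arrays used Agilent Feature Extraction 9.5.3.1, per the file headers and the submitters' processing notes. The deposited array files hold spot intensity, background-subtracted and not scaled between arrays. Log2 values of filtered miRNAs come from a table the authors deposited, and their deposited tables of comparisons give, per the file headers, uncorrected p-values with log2 fold changes. Spots flagged as outliers were dropped (153 to 294 per array). Signals were scaled to the 75th percentile over 254 probes above background on all arrays (1750 to 3422 before scaling), set to a floor of 19.8 and logged. The brightest probe stood for a miRNA, tested when 3 or more of the 5 arrays of any group had it above background. Differences came from limma 3.58.1 (R 4.3.3) over 3 groups, two-sided, with Benjamini-Hochberg adjustment over 165 miRNAs and a threshold of 0.05. Ratios used exact permutation tests (scipy 1.17.1). Scripts were tested on simulated data. Normexp with offset 50 used median spot signals, since the files hold no mean spot signal. Alternatives were other scalings, summaries, filters, sample sets and blocks. The number of arrays limits the precision.

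All members are named, with lists of neighbouring and seed-sharing miRNAs and cell markers; of the lists, miRNAs are named when past the threshold, with 10 samples or 15 arrays, or separate between groups at an unadjusted p under 0.05, and a few others were named after their values were seen. The 3 nearest non-members of each member are named by profile. The members and lists were chosen with earlier results of these data known. Replicate numbers were checked as pairs across groups. Same-numbered arrays of GF and Veh deviated together in 4 of 4 pairs (0.15 to 0.47), each pair on 1 slide. GF and Veh arrays of other numbers gave -0.41 to 0.28 in 9 pairs on 1 slide and -0.26 to 0.28 in 12 pairs on different slides. For DM and Veh the correlations of same-numbered arrays were -0.30 to 0.29 and for GF and DM -0.53 to 0.060. The labels give no source of a pairing, so the main fit used no pairs in any comparison. The replicate block was run only as an alternative, over the 15 arrays of all 3 groups. Mature sequences were matched by name in the RefSeq table for all 6 members.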

Additional observations from a re-analysis of the deposited data

How the results depend on the processing

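With n of 3 to 4 distinct samples the counts of called members were unstable, and for each result that changed the cause was not tested. In GF minus Veh the number of called members was 0 with the 75th percentile over all probes, the authors' deposited values, merging of further arrays that differed about as much as the stated error allows (8 samples left), no filter, no scaling and scaling to the hur control spots. It was 2 with total gene signal or probes averaged, 3 with all 15 arrays, the slide block or the replicate block, and 0 to 1 with a sample left out. Each fit over 15 arrays counts both arrays of a near-identical pair. With the replicate block, GF 6 is alone under its number and adds nothing to the GF differences. Of all tested miRNAs, 4.85% were called lower in the main fit, 23.6% with all 15 arrays and 19.4% with the replicate block. For the other settings that share is not given, so their counts cannot be read as particular to the members. In DM minus Veh it was 0 under each alternative run. In GF minus DM it was 1 with all 15 arrays (3.64% of all tested miRNAs) and with the slide block, and 0 with a sample left out. With the replicate number as a block over 15 arrays, GF minus DM had 0 called members and GF minus Veh 3; same-numbered arrays deviated together in GF and Veh alone, beside the unblocked 15 arrays the block changed the count of called members in GF minus DM alone, and miR-497 was -0.47 in GF minus Veh. Of the member probes, 7 were called in GF minus Veh and 3 in GF minus DM with 15 arrays, beside 23.7% and 4.0% of all tested probes called lower.

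Differences between groups turned sign under these settings. Without scaling and in the values the authors deposited, in that order, GF minus Veh was 0.12 and 0.11 for miR-15b, 0.24 and 0.22 for miR-16, and 0.089 and 0.063 for miR-195, and GF minus DM was 0.36 and 0.37 for miR-15b, 0.38 and 0.38 for miR-16, 0.28 and 0.26 for miR-195 and 0.16 and 0.14 for miR-497. For miR-503 GF minus DM was 0.11 with no scaling. DM minus Veh of miR-322 was -0.11 with both. With the percentile over all probes, GF minus Veh was 0.054 for miR-16, and GF minus DM was 0.039 for miR-15b and 0.058 for miR-16. With quantile normalization GF minus DM was 0.063 for miR-15b and 0.016 for miR-16. With the hur control spots DM minus Veh was 0.032 for miR-15b, 0.13 for miR-16, 0.081 for miR-195, 0.017 for miR-497 and 0.091 for miR-503. Normexp gave DM minus Veh of 0.20 for miR-503 and 0.18 for its ratio to miR-322. With 15 arrays, alone or with the replicate block, DM minus Veh of miR-322 was -0.014, and -0.027 with the slide block. With a sample left out, DM minus Veh ran from -0.043 to 0.011 for miR-16, -0.067 to 0.12 for miR-322 and -0.21 to 0.055 for miR-503. The ratio of miR-503 to miR-322 in DM minus Veh then ran from -0.19 to 0.12, and that of miR-15b to miR-16 in GF minus DM from -0.069 to 0.023. With quantile normalization the GF minus DM value of miR-15b to miR-16 was 0.048. Within slide 1, DM minus Veh was 0.0011 for miR-16 and 0.17 for miR-503 and GF minus Veh 0.11 for miR-503, and within slide 2 DM minus Veh of miR-322 was -0.067.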
